A study of Homo sapiens with 6 samples.

Results

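The replication-dependent histone genes encode the histones that package newly copied DNA: the linker histone H1, which binds the DNA between nucleosomes, and the core histones H2A, H2B, H3 and H4. The 69 genes described here were chosen by their gene symbol, out of 63643 rows of the count table, and they comprise 6 H1, 17 H2A, 18 H2B, 13 H3 and 15 H4 genes. They were put together with earlier results of the same comparison known, so their differences between the treated and untreated libraries are given as a description without a test. Of the 69 genes, 45 had enough counts to enter the fit over all genes, namely 4 H1, 11 H2A, 12 H2B, 7 H3 and 11 H4 genes.

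The cells were HEK293T, an established human embryonic kidney line, and all of them carried a deletion of GLO1, the glyoxalase that starts the main route of methylglyoxal clearance. The 3 libraries of the MGO group came from cells given 60 µM methylglyoxal, a reactive by-product of glycolysis, for 4 h per the protocol, and the 3 Control libraries came from untreated cells of the same kind. The names of the MGO libraries carry a number other than this dose, and the labels do not explain it. They also do not say whether the deleted cells are 1 clone or whether the libraries come from separate cultures, so the spread between libraries may be technical. RNA was selected by its poly(A) tail before sequencing. The comparison addresses which transcripts change after methylglyoxal is given; neither its level nor its clearance is in these data.

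Replication-dependent histone genes differ from other protein-coding genes in how their mRNA ends. Their transcripts carry no introns in the canonical form and no poly(A) tail. The mRNA ends a few bases after a short stem-loop, which the protein SLBP binds. The U7 snRNP, with its subunits LSM10 and LSM11, helps to cut the pre-mRNA after the stem-loop. The mRNA is made in S phase under the coactivator NPAT, translated through SLBP and degraded when DNA replication stops, by a route that adds uridines to the 3′ end. A small share of the transcripts is polyadenylated past the stem-loop, and some genes of the family also yield longer, tailed mRNA in cells that are not dividing. A library made from tailed RNA therefore reads the tailed histone transcripts and whatever untailed RNA is carried through the selection, and the level of a histone gene in it is not the level of its whole mRNA.

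The stem-loop is shown first because the H4 genes spell it differently from the others. The untailed form also ends a few bases after it, while the tailed form runs past it. A stem-loop of the form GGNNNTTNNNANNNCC was found after the coding region in an annotated GENCODE 29 transcript of 31 members. The annotated transcripts of the other 38 did not include one, those of all H1 genes among them. For 34 of these 38, no annotated transcript ran past the coding region, so a stem-loop could not be found there. The spelling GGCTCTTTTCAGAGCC was that of 17 members (6 H2A, 8 H2B and 3 H3), and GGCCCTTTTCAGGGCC that of 5 members, all of them H4. The spelling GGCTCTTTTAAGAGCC was that of 3 H2B genes and 1 H3 gene, and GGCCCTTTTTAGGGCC that of 3 H4 genes. H3C6 and H2AC11 each had a spelling found in no other annotated member. The capitals mark the stem-loop and the lower case its annotated flanks, in the transcripts of 1 gene for each spelling.
H2BC21: tccaaaGGCTCTTTTCAGAGCCacccacc
H4C8: accaaaGGCCCTTTTCAGGGCCgcccact
H2BC5: cccaaaGGCTCTTTTAAGAGCCacgcatg
H4C9: taaaaaGGCCCTTTTTAGGGCCcctaagc
H3C6: tccaaaGGCTCTTCTCAGAGCCaaccact
H2AC11: accaacGGCTCTTTTCAGGGCCacccacg

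Upstream sequence was compared because members of 1 class share promoter words. RefSeq (GRCh38.p14) gave a window from 250 bases before to 50 bases after the start for 64 of the 69 members, and the first listed start was used for each gene. The window was searched on both strands for the TATA box TATAAA, the CCAAT box CCAAT, the octamer ATTTGCAT and the H1 box AAACACA, none of which contains another. The TATA box was in 42 members, or 65.6%, against 12% of all 27305 promoter windows. CCAAT was in 54 members, or 84.4%, against 35.7% of all windows, and it was in all 51 H1, H2A, H2B and H3 windows but in 3 of 13 H4 windows. The octamer was in 11 of 16 H2A, 14 of 18 H2B and 1 of 11 H3 windows, against 1.8% of all windows, and in no H1 or H4 window. The 1 H3 window was that of H3C4, and it was the same stretch as the H2AC7 window, chr6:26199244-26199543. GENCODE 29 places H3C4 at chr6:26196840-26197250, outside that window. AAACACA was in all 6 H1 windows, 1 H2A window and 2 H3 windows, against 5.76% of all windows. These are letter matches in the reference and not measured binding. Windows of head-to-head H2A and H2B genes can overlap, so 1 match can count for both genes. The 200 bases before the start are shown for 5 genes, with the searched words in capitals.
H1-2, GRCh38.p14 chr6:26056471-26056670, minus strand: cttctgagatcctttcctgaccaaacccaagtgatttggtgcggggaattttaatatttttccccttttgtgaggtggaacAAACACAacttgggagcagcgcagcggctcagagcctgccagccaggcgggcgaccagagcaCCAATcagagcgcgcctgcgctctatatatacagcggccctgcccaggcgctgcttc
H2BC21, GRCh38.p14 chr1:149886683-149886882, minus strand: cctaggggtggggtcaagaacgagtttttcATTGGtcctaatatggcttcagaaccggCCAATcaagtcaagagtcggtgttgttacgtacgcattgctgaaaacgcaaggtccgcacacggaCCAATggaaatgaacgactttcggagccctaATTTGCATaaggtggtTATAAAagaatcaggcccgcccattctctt
H2AC20, GRCh38.p14 chr1:149886718-149886917, plus strand: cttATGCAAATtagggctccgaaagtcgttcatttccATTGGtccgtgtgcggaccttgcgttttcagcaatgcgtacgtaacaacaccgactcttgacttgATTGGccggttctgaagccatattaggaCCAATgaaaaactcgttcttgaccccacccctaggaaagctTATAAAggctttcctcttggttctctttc
H3C2, GRCh38.p14 chr6:26032100-26032299, minus strand: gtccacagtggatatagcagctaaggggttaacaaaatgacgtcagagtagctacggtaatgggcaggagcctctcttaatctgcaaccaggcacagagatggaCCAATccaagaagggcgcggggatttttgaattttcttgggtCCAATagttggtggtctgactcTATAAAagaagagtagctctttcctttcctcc
H4C4, GRCh38.p14 chr6:26189113-26189312, minus strand: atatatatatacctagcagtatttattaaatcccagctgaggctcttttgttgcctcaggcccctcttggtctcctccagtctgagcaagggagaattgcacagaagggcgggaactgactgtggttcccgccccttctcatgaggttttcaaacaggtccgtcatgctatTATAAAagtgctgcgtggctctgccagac
H2BC21 and H2AC20 lie head to head on chromosome 1, and the 2 windows shown for them are opposite strands of the same stretch from 149886718 to 149886882. H4C4 holds the TATA box and no CCAAT in the printed stretch, and H1-2 holds AAACACA and CCAAT and no exact TATA box.

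Total counts ran from 117427883 to 157639431 per library, and the members took 0.0152%, 0.0215% and 0.0171% of them in MGO 1, 2 and 3 and from 0.0102% to 0.0107% in the Control libraries. The targeted gene GLO1 had 11704, 11481 and 11154 counts in MGO and 5357, 6860 and 6590 in Control, and the labels name no exon or region for the deletion. Over all 23109 genes tested with edgeR, 8964 passed an adjusted p of 0.05 with a higher level in MGO (38.8%) and 9362 with a lower level (40.5%). In 81.5% of the tested genes the MGO and Control libraries did not overlap. The TMM scaling factors (a correction for the make-up of each library) were 0.815 to 0.858 in MGO and 1.19 to 1.21 in Control, and with library size alone the median of all genes was lower by 0.53 on the log2 scale. All 7 markers listed for the kidney line were fitted: KRT8, KRT18 and VIM were called higher in MGO (log2 1.58, 1.88 and 0.89), PAX2, NEFM and CDH2 lower (-1.94, -1.39 and -1.37), and LHX1 was not called. Their part in the histone values was not tested. Of the blood markers, HBB was at 0 in all libraries, CD3E and PTPRC were under 0.07 CPM, and LYZ and SPI1, the 2 of 5 that were fitted, were at most 0.67 and 0.33 CPM. Of 5 fibroblast markers, 3 were fitted, LUM was called higher and COL1A1 lower, and COL1A2 and DCN were under 0.08 CPM.

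The summed level of the 69 genes was higher in every MGO library than in any Control library. It was 177.2, 263.9 and 206.9 CPM (counts scaled to the library total, here with the TMM factors) in MGO 1, 2 and 3. In Control 1, 2 and 3 it was 84.1, 89.2 and 87.9 CPM. The groups did not overlap, and the MGO libraries were spread far more widely than the Control libraries, with MGO 2 highest: the means were 216 ± 44.1 and 87.1 ± 2.68 CPM (SD, n = 3 each). The ratio of the means was 2.48, and it was 2.21 without MGO 2. In bulk RNA a change in the share of cells in S phase and a change in RNA per cell cannot be told apart.

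Of the 45 members fitted, 39 passed the threshold with a higher level in MGO and 2 with a lower level, beside 38.8% and 40.5% of all genes. The 4 others were H1-5, H2BC4, H2BC17 and H4C9. Groups did not overlap for 40 of the 45 members, beside 81.5% of all genes. The median log2 fold change of the 45 was 1.42. Without MGO 2, 38 members were called higher and 2 lower (37 of the 39 above, and H4C9), beside 36.7% and 38.7% of all genes, and the median was 1.15.

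H1 binds linker DNA and compacts chromatin, and its summed level had the largest ratio of the 5 classes. The 6 H1 genes summed to 50.7, 70.4 and 55.9 CPM in MGO and 19.1, 19.1 and 20.1 CPM in Control, a ratio of 3.03. H1-2 alone made up 90.5% of the H1 counts, so the class sum is close to that 1 gene. H1-2 stood at 47.9, 61.5 and 51.1 CPM in MGO and 17.5, 17.0 and 18.2 CPM in Control, a log2 fold change of 1.61 (SE 0.09). The 3 MGO libraries were all well above the Control libraries, and MGO 2 was 1.29 times MGO 1. H1-4 was at 2.11, 7.67 and 3.76 CPM in MGO and 1.04, 1.36 and 1.13 CPM in Control, with a log2 fold change of 1.93 (SE 0.35). Its groups did not overlap either, but MGO 2 was 3.64 times MGO 1, and without MGO 2 the log2 fold change was 1.32. H1-3 was at 0.22, 0.62 and 0.32 CPM in MGO and 0.18, 0.18 and 0.16 CPM in Control (log2 1.17, SE 0.34), and its call was lost without MGO 2, at 0.66. H1-5 was at 0.39, 0.62 and 0.66 CPM in MGO and 0.38, 0.56 and 0.52 CPM in Control. Its groups overlapped, with a log2 fold change of 0.19 (SE 0.23). H1-1 and H1-6, the latter known from the testis, had 10 and 23 counts over all libraries and were not fitted.

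H2A pairs with H2B in the dimers that flank the H3 and H4 core. In this class 10 of the 11 fitted genes were called higher in MGO, beside 38.8% of all tested genes. The 17 H2A genes summed to 22.7, 39.0 and 28.6 CPM in MGO and 10.1, 11.7 and 11.2 CPM in Control, a ratio of 2.74. H2AC6, the largest with 26.9% of the class counts, was at 7.05, 8.73 and 7.48 CPM in MGO and 3.17, 3.07 and 3.36 CPM in Control (log2 1.28, SE 0.10). H2AC20 was at 6.96, 9.58 and 8.33 CPM in MGO and 1.91, 2.13 and 2.32 CPM in Control (log2 1.97, SE 0.13). Both had tight Control libraries and no overlap. H2AC13, with 57.7% of its 100-base windows shared with other genes' transcripts, was at 1.92, 3.92 and 2.48 CPM in MGO and 1.24, 1.70 and 1.21 CPM in Control (log2 0.997, SE 0.23). H2AC4 had the highest log2 fold change of the class, 2.23 (SE 0.36), from 0.41, 1.12 and 0.72 CPM in MGO and 0.11, 0.22 and 0.14 CPM in Control. H2AC4 was at low level in all libraries and still had no overlap. H2AC21 had counts of 10, 83 and 30 in MGO and 6, 18 and 25 in Control, which overlap. Its log2 fold change was 1.91 (SE 0.61) with MGO 2 and 0.89 without it, where the call was lost.

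H2AC18 was the 1 H2A gene called lower, with counts of 8, 9 and 6 in MGO and 15, 27 and 26 in Control (log2 -0.96, SE 0.35). The groups did not overlap in CPM. All of its 100-base windows occur in another gene's transcript as well, and its near-identical copy H2AC19 had 5 counts, so which copy the reads came from is uncertain. The call was lost under DESeq2, upper-quartile scaling, and without MGO 3, Control 2 or Control 3.

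H2B was the class with the smallest ratio of sums, 2.18, and the largest number of counts. Its 18 genes summed to 75.1, 104.6 and 87.5 CPM in MGO and 40.4, 41.8 and 40.3 CPM in Control. H2BC12 made up 61.2% of the class counts and was at 45.6, 59.4 and 53.4 CPM in MGO and 26.0, 26.3 and 26.2 CPM in Control (log2 1.01, SE 0.09). Its Control libraries differed by less than those of any other fitted member, with a coefficient of variation of 0.469%. Without H2BC12, the log2 ratio of the H2B sums was 1.31 in place of 1.13. H2BC21 was at 9.75, 13.0 and 10.3 CPM in MGO and 4.36, 4.13 and 3.84 CPM in Control (log2 1.42, SE 0.11). H2BC5 was at 5.55, 8.60 and 6.17 CPM in MGO and 2.54, 2.68 and 2.38 CPM in Control (log2 1.42, SE 0.15). All 3 genes had no overlap between groups, and MGO 2 was the highest library in each. H2BC13 had the highest log2 fold change of the class, 2.18 (SE 0.25), from 0.88, 1.84 and 1.32 CPM in MGO and 0.26, 0.33 and 0.29 CPM in Control.

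The 3 fitted H2B genes not called higher were all at low level. H2BC6 had counts of 19, 7 and 5 in MGO and 30, 45 and 36 in Control (log2 -1.24, SE 0.40), and here MGO 2 was not the highest library. Its groups did not overlap in CPM, and its call was lost without MGO 3, at -0.90. H2BC4 had 33, 47 and 48 counts in MGO and 42, 64 and 80 in Control (log2 0.05, SE 0.23). H2BC17 had 7, 10 and 11 counts in MGO and 14, 11 and 18 in Control (log2 -0.05, SE 0.38). For both of these genes the libraries of the groups overlapped in CPM.

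H3 forms the tetramer with H4 at the centre of the nucleosome. All 7 fitted H3 genes were called higher in MGO, beside 38.8% of all tested genes. The 13 H3 genes summed to 15.3, 24.6 and 18.3 CPM in MGO and 8.06, 8.66 and 8.17 CPM in Control, a ratio of 2.34. H3C6, with 39.1% of the class counts, was at 8.12, 8.08 and 7.84 CPM in MGO and 2.99, 2.85 and 3.12 CPM in Control (log2 1.42, SE 0.08). Its 3 MGO libraries were nearly equal, with a coefficient of variation of 1.91%, the lowest of the fitted members. H3C10 was at 4.76, 7.67 and 5.95 CPM in MGO and 4.09, 4.17 and 3.94 CPM in Control, and had the lowest log2 fold change of the class, 0.59 (SE 0.14). Under library size alone its value was 0.06 and its call was lost. With each library's trend of level on transcript length removed it was 0.19, and the call was lost as well. H3C2 had the highest log2 fold change of all 45 members, 2.39 (SE 0.41), from 1.51, 6.08 and 3.01 CPM in MGO and 0.49, 0.93 and 0.58 CPM in Control. Its groups did not overlap, but MGO 2 was 4.03 times MGO 1, and without MGO 2 the log2 fold change was 1.75.

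H4, the partner of H3, summed over its 15 genes to 13.5, 25.2 and 16.6 CPM in MGO and 6.41, 8.02 and 8.19 CPM in Control, a ratio of 2.44, or 1.99 without MGO 2. Of 11 fitted H4 genes, 10 were called higher, beside 38.8% of all tested genes. H4C8, with 34.4% of the class counts, was at 5.13, 6.38 and 5.14 CPM in MGO and 3.09, 2.98 and 3.39 CPM in Control (log2 0.81, SE 0.11). H4C16, the 1 member on chromosome 12, was at 2.55, 2.49 and 2.14 CPM in MGO and 1.28, 1.51 and 1.65 CPM in Control (log2 0.69, SE 0.13). Both had no overlap, and their coefficients of variation in MGO were 13% and 9.22%. Under library size alone the call of H4C16 was lost, at 0.16. H4C5 was at 1.58, 4.23 and 2.27 CPM in MGO and 0.48, 0.97 and 0.93 CPM in Control (log2 1.75, SE 0.33). H4C4 had the highest log2 fold change of the class, 2.33 (SE 0.34), from 0.85, 2.44 and 1.36 CPM in MGO and 0.26, 0.40 and 0.25 CPM in Control. In both, MGO 2 was more than 2 times MGO 1. H4C9 had 31, 15 and 23 counts in MGO and 20, 29 and 16 in Control (log2 0.67, SE 0.34), and it was the 1 H4 gene not called. Without MGO 2 it was called higher, at 0.91, and all 11 fitted H4 genes then were, beside 36.7% of all genes.

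**Figure D1:**
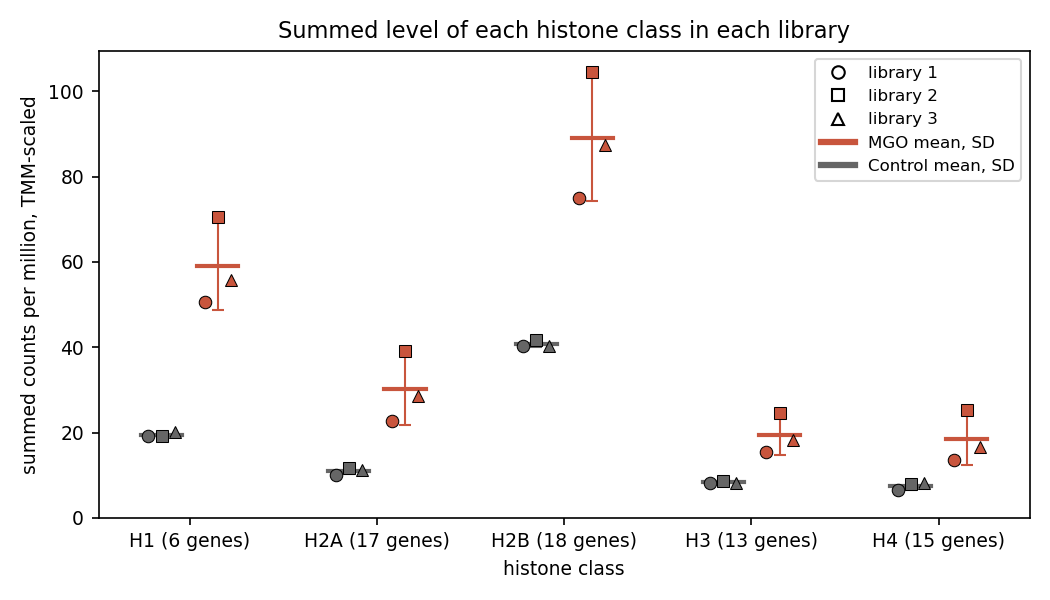
Summed level of each histone class in each library, in TMM-scaled CPM on a linear axis from 0; symbols are single libraries, horizontal bars the group means and error bars the SD (n = 3). Every MGO library lies above every Control library in all 5 classes, and library 2 of the MGO group is the highest in each.

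**Figure D2:**
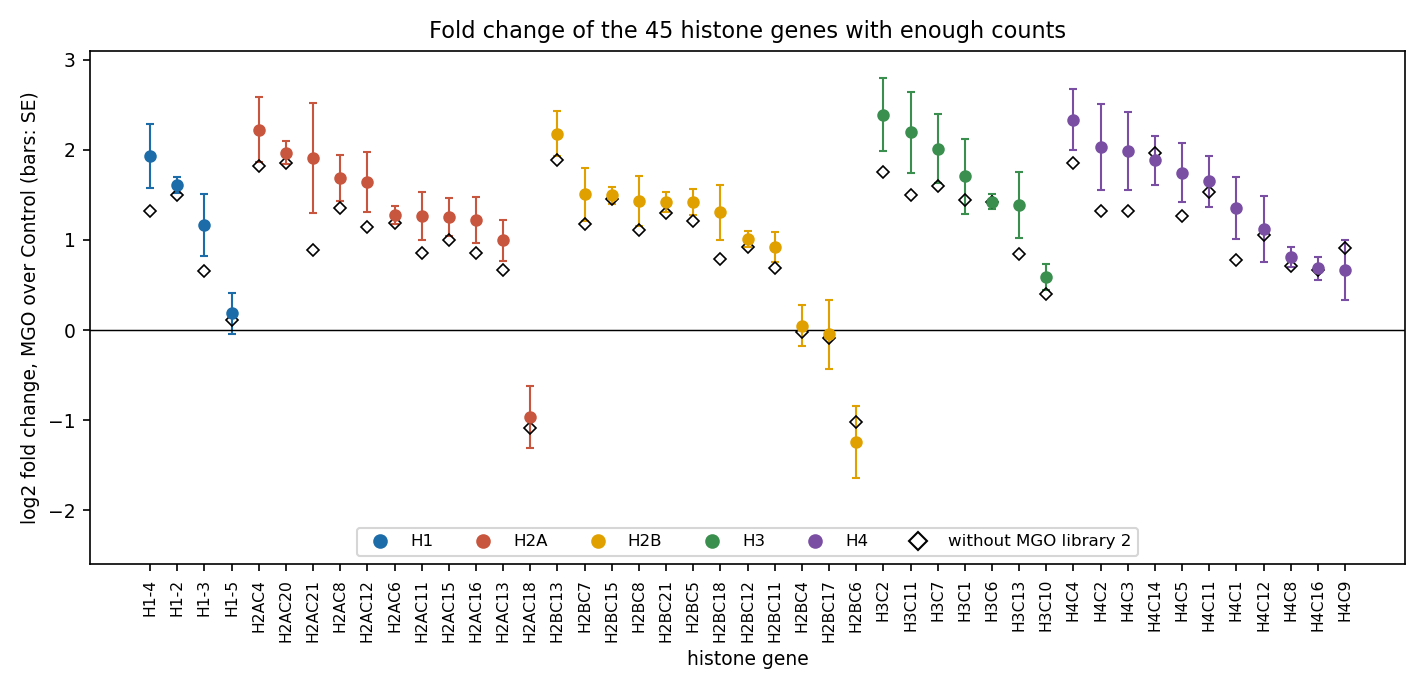
Log2 fold change of MGO over Control for the 45 fitted histone genes, ordered within each class, with bars for the standard error; open diamonds give the value without MGO library 2. H2AC18 and H2BC6 lie below 0, and most diamonds lie below their filled point.

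The class medians of log2 fold change were 1.39 for H1, 1.28 for H2A, 1.36 for H2B, 1.71 for H3 and 1.65 for H4. Without MGO 2 they were 0.99, 0.99, 1.02, 1.44 and 1.27. The order of the classes depended on the measure: H1 had the highest ratio of sums and H3 the highest median, and the sums give most weight to the few abundant members. The ranges of the classes overlapped: the fitted members ran from 0.19 to 1.93 in H1, from -0.96 to 2.23 in H2A, from -1.24 to 2.18 in H2B, from 0.59 to 2.39 in H3 and from 0.67 to 2.33 in H4.

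The members differed most in how far the MGO libraries stood from each other. MGO 2 was the highest MGO library in 37 of 45 fitted members (82.2%), against 31.7% of all tested genes. The order MGO 2, MGO 3, MGO 1 was found in 35 members (77.8%), against 21.8% of all genes. Among the Control libraries, Control 1 was lowest in 26 members (57.8%), against 42.9% of all genes. The median coefficient of variation of the members was 37.3% in MGO and 18% in Control, and over all tested genes it was 10.8% and 6.89%. Over the 4839 tested genes with total counts from 304 to 2133, near the middle of the fitted members' range, it was 14.3% and 10.7%. The median of MGO 2 over MGO 1 was 2.04 in the members and 0.998 over all tested genes. By class that median was 2.21 for H1, 2.34 for H2A, 1.47 for H2B, 2.74 for H3 and 1.62 for H4.

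This spread was smaller in the members with more counts (levels here are not corrected for length). The 11 members at 2 CPM or more in Control (H1-2, H2AC6, H2AC20, H2BC5, H2BC11, H2BC12, H2BC15, H2BC21, H3C6, H3C10 and H4C8) had MGO 2 over MGO 1 from 0.995 to 1.70, with a median of 1.30. Their median coefficient of variation in MGO was 13.3%. The 34 members under 2 CPM had MGO 2 over MGO 1 from 0.359 to 8.08, with a median of 2.47, and a median coefficient of variation of 45%. The 2 CPM division was chosen after the values were seen. Summed, the 11 abundant members stood at 150.6, 196.3 and 166.6 CPM in MGO and 70.6, 70.6 and 71.5 CPM in Control, a ratio of 2.42, or 2.24 without MGO 2. The 34 others summed to 26.4, 67.5 and 39.9 CPM in MGO and 13.2, 18.4 and 16.2 CPM in Control, a ratio of 2.80, or 2.08 without MGO 2. In 29 of the 34, MGO 1 was closer to the Control mean than to MGO 2, and in the other 5, H4C14, H4C16 and H4C12 among them, it was not. H4C2 is an example, with 0.45, 2.45 and 1.20 CPM in MGO and 0.17, 0.42 and 0.40 CPM in Control: MGO 1 was just above Control 2, and MGO 2 was 5.39 times MGO 1. The values of H4C2 rest on 50, 277 and 138 counts in the MGO libraries and 24, 79 and 69 in the Control libraries.

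The summed level of RNAs that cells make without a poly(A) tail put the libraries in the same order. A list of 32 such RNAs (small nuclear RNAs, Y RNAs, vault RNAs, the signal recognition particle RNA and others) was drawn up after the data were seen. Of these, 31 were in the table, 9 were at 0 in all libraries and 15 were fitted. The listed RNAs summed to 105.7, 654.5 and 293.4 CPM in MGO and 49.6, 99.1 and 86.0 CPM in Control. MGO 2 was highest and MGO 1 lowest of the MGO libraries, and Control 1 was the lowest of all 6, which is also the order of the summed histones under 2 CPM. RN7SL1, the RNA of the signal recognition particle, made up 77.3% to 82.2% of these sums. Without it they were 24, 131.6 and 61.2 CPM in MGO and 8.81, 18.3 and 15.4 CPM in Control, in the same order. MGO 2 was the highest MGO library in 13 of the 15 fitted RNAs, with a median MGO 2 over MGO 1 of 2.69, but Control 1 was the lowest Control library in only 6 of them. Of the 15, 14 were called higher in MGO, beside 38.8% of all genes. RN7SL1 was at 81.8, 522.9 and 232.1 CPM in MGO and 40.7, 80.8 and 70.7 CPM in Control. RMRP, the RNA of the RNase MRP, was at 10.7, 80.1 and 34.4 CPM in MGO and 4.13, 11.6 and 9.55 CPM in Control. The summed untailed RNAs thus shared the library order of the summed histones under 2 CPM. The 11 abundant histone genes differed little between the Control libraries, at 70.6, 70.6 and 71.5 CPM. The part of the untailed RNAs in the histone values was not tested.

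**Figure D3:**
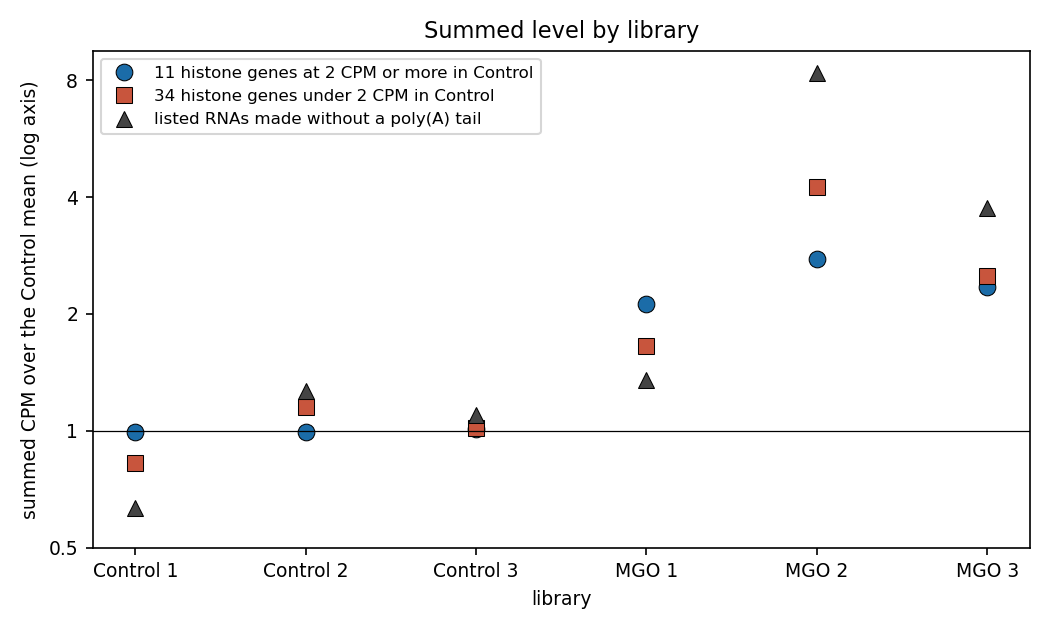
Summed level in each library over the mean of the 3 Control libraries, on a log axis, for the 11 histone genes at 2 CPM or more in Control, the 34 others and the listed RNAs made without a poly(A) tail. In all 3 sets MGO 2 is highest, and the distance between MGO 1 and MGO 2 is smallest for the abundant histone genes and largest for the untailed RNAs.

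**Figure D4:**
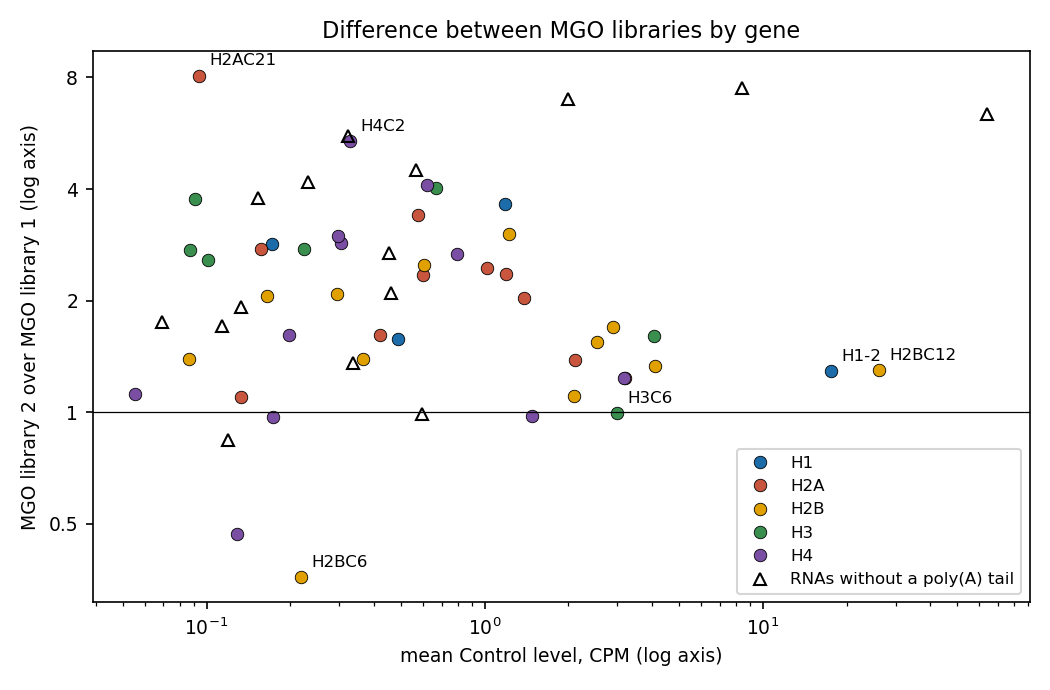
MGO library 2 over MGO library 1 for each fitted histone gene and each fitted RNA made without a poly(A) tail, against its mean Control level; both axes are logarithmic. Among the histone genes at high level, H1-2 and H2BC12 lie at 1.29 and 1.30 and H3C6 at 0.995. Most of the others lie above 1, and H2BC6 lies below it at 0.359.

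The library spread also differed with the annotated 3′ end. For 16 fitted members an annotated transcript ran at least 100 bases past the stem-loop, which is the form that a tail could be added to. Their median MGO 2 over MGO 1 was 1.29 and their median log2 fold change 1.29. For 7 fitted members the annotated transcript with the stem-loop ended within 100 bases after it, with medians of 2.04 and 1.65. One of these 7, H2BC5, also has an annotated transcript without the stem-loop that runs 384 bases past the coding region. For the 22 fitted members with no annotated stem-loop the medians were 2.75 and 1.62. Most of these 22 have no annotated sequence past the coding region, so their 3′ end is not known from the annotation. H2BC11, also among them, has 569 annotated bases past it. Members at 2 CPM or more in Control, which had less spread, were split unevenly over the groups. They were H2AC6, H2BC15, H2BC21, H3C6, H3C10 and H4C8 among the 16, and H2BC5 among the 7. Among the 22 they were H1-2, H2AC20, H2BC11 and H2BC12. The part of level in these medians was not tested. The groups overlapped widely: H2BC18 and H4C5, both with long annotated ends, had MGO 2 over MGO 1 of 3.02 and 2.67, while H2BC12, annotated as coding sequence alone, had 1.30.

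The genes lie in clusters on chromosomes 1 and 6, apart from H4C16 on chromosome 12. In the largest, at chr6:25726132-26285638 (GRCh38, GENCODE 29), 34 members lay, 21 were fitted, 19 were called higher and 1 lower, with a median log2 fold change of 1.61. The cluster at chr6:27807444-27893843 held 16 members, of which 11 were fitted and 9 called higher (median 1.22). The smaller one at chr6:27125897-27147515 held 5 members, of which 4 were called higher (median 1.01). On chromosome 1, the cluster at chr1:149782689-149887916 held 11 members, 7 fitted and 6 called higher (median 1.42), and the pair at chr1:228456979-228460470 was not fitted. Beside these counts, 38.8% of all tested genes were called higher and 40.5% lower.

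H2A and H2B genes often lie head to head and share the sequence between their starts, as the printed H2BC21 and H2AC20 windows do. There were 12 such pairs with annotated starts within 1000 bases, and both genes were fitted in 7. In 6 of the 7 pairs both partners were called higher, where 39 of the 45 fitted members and 38.8% of all tested genes were. H2BC21 and H2AC20 had log2 fold changes of 1.42 and 1.97 and close ratios of MGO 2 over MGO 1, 1.33 and 1.38. H2BC8 and H2AC8 were likewise close, at 1.43 and 1.69, with ratios of 2.49 and 2.34. Partners were not always alike: H2BC12 and H2AC12 had log2 fold changes of 1.01 and 1.64 and ratios of 1.30 and 3.40. In the 7th pair H2AC6 was called higher at 1.28 and H2BC4 stood at 0.05.

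The 24 members not fitted had few counts. Of these, 21 had fewer than 20 counts over all 6 libraries and 1, H3C4, was at 0 in all of them. A count of 0 allows up to 3 counts, or 0.0273 CPM in the library where 1 count weighs most. All windows of H3C4 occur in another gene's transcript as well, and 15 of the 69 members had at least 50% of their windows shared in this way, 9 of them among those not fitted. The labels and notes are silent on reads that match several genes, so a low count of such a gene is not read as low expression. H2AC1 and H2BC1, known from the testis, had 7 and 5 counts.

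The counts of the gene lists that follow stand beside 38.8% of all tested genes called higher and 40.5% called lower. Of 12 listed genes that drive histone transcription, all 12 were fitted, 8 rose and 3 fell (median log2 fold change 0.57). Under library size alone 5 were higher and 5 lower (median 0.04), and with the trend on transcript length removed 10 were higher and 0 lower. CCNE1, the cyclin that activates CDK2 at the start of S phase, rose from 60.6, 56.6 and 57.7 CPM in Control to 216.7, 200.2 and 202.4 CPM in MGO (log2 1.83, SE 0.06). CDC25A, the phosphatase that activates CDK2, rose by 1.54 (SE 0.07). NPAT, the CDK2 substrate at histone genes, was at 41.6, 33.1 and 32.1 CPM in MGO and 29.1, 33.4 and 34 CPM in Control, with overlap and a log2 fold change of 0.14 (SE 0.10). CASP8AP2, which works with NPAT, fell from 5.49, 5.10 and 5.20 CPM to 2.74, 1.83 and 1.95 CPM (log2 -1.28, SE 0.14), and its call was lost with the length trend removed, at -0.17. POU2F1, which binds the octamer, fell by 1.67 (SE 0.11), and CREBBP, a histone acetyltransferase, fell by 1.54 (SE 0.11), but with the trend on transcript length removed these stood at 0.44 and 0.065.

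Of 20 listed factors of histone mRNA 3′ processing, 18 were fitted, 11 rose and 6 fell (median 0.28). Under library size alone the counts turned to 6 higher and 11 lower and the median to -0.24. SLBP, the stem-loop binding protein, rose from 73.7, 69.9 and 76.9 CPM in Control to 188.8, 191.2 and 176.2 CPM in MGO (log2 1.34, SE 0.07). Its MGO libraries were nearly equal, unlike those of most histone genes. The U7 subunit LSM10 was at 32.9, 41.5 and 40.8 CPM in MGO and 27.0, 25.1 and 27.4 CPM in Control (log2 0.54, SE 0.09). Its call was lost under library size alone, at 0.0074, and with the length trend removed, at 0.18. Its partner LSM11 fell from 36.5, 38.1 and 39.1 CPM to 22.3, 20.5 and 19.7 CPM (log2 -0.86, SE 0.07), and stood at 0.33 with the length trend removed. SNRPB and SNRPE, Sm proteins shared by U7 and the spliceosomal snRNPs, rose by 1.80 (SE 0.08) and 1.58 (SE 0.08). CPSF2, a subunit of the complex that cleaves histone pre-mRNA, fell by 1.32 (SE 0.07), and stood at 0.71 with the length trend removed.

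Factors of histone mRNA export, translation and decay numbered 22, of which 20 were fitted, 13 rose and 5 fell (median 0.97, and 0.45 under library size alone). With the length trend removed 16 were higher and 2 lower. SRSF7, an export adaptor, and LSM1, of the ring that binds the uridylated end, had log2 fold changes of 1.85 (SE 0.07) and 1.68 (SE 0.08). TUT4, a terminal uridylyltransferase, and XRN1, the 5′ exonuclease, fell by 1.89 (SE 0.11) and 1.28 (SE 0.12), and stood at -0.87 and -0.35 with the length trend removed. Of 14 genes of general cleavage and polyadenylation, 7 rose and 4 fell (median 0.08). With library size alone 4 were higher and 10 lower, and the median was -0.44. The largest values were those of CLP1 (1.65, SE 0.07) and CSTF1 (1.51, SE 0.06). The lowest were those of PAPOLA, the main nuclear poly(A) polymerase (-1.12, SE 0.07), and NUDT21 (-0.57, SE 0.07), which was at 0.094 with the length trend removed.

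Replacement histones, whose mRNA has introns or a poly(A) tail and is made outside S phase as well, gave a comparison for the members within the same libraries. Of 16 listed, 13 were in the table and fitted, 10 rose and 1 fell (median 1.03). Under library size alone 7 were higher and 2 lower (median 0.51), and with the length trend removed 9 were higher and 2 lower. H3-3B, which encodes H3.3, rose from 703.7, 653.0 and 690.9 CPM to 1640, 1702 and 1624 CPM (log2 1.28, SE 0.06), and H3-3A, which encodes the same protein, rose by 0.56 on the log2 scale (SE 0.07), or 0.03 under library size alone. The MGO libraries of both genes lay close together. H1-10 was at 190.7, 287.2 and 278.3 CPM in MGO and 90.9, 102.3 and 108.6 CPM in Control (log2 1.33, SE 0.13). H2AX, the damage-marked variant whose mRNA can end in either form, was at 358.0, 469.3 and 464.4 CPM in MGO and 184.9, 206.8 and 206.0 CPM in Control (log2 1.11, SE 0.10). In H1-10 and H2AX library 1 was the lowest of its group in both conditions. H2AJ and H2AZ1 had log2 fold changes of 1.50 (SE 0.09) and 0.82 (SE 0.07), and H2AZ2 was the 1 replacement histone that fell, by 0.47 (SE 0.06).

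Of 27 histone chaperones and deposition factors, 25 were fitted, 9 rose and 12 fell (median -0.16). The counts were 5 and 18 under library size alone (median -0.69). HJURP, which loads the centromeric H3 variant, rose from 60.0, 59.2 and 60.6 CPM to 211.6, 187.2 and 185.8 CPM (log2 1.70, SE 0.07). DAXX, which deposits H3.3, was at 1.23, 1.54 and 1.75 CPM in MGO and 0.79, 0.38 and 0.52 CPM in Control (log2 1.45, SE 0.23). Its partner ATRX had the lowest value of the list, with 23.5, 15.8 and 18.6 CPM in MGO and 128.2, 156.1 and 149.4 CPM in Control (log2 -2.91, SE 0.13). UBN2, of the HIRA complex, was at -2.41 (SE 0.13). With the length trend removed ATRX stood at -1.12 and UBN2 at -0.25. Among 22 genes of S phase, SLBP included, 16 rose and 4 fell (median 0.79). With library size alone these were 14 and 7 (median 0.26).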

How the data were processed

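RNA from 6 libraries (3 MGO, 3 Control) was measured as deposited raw counts per gene, which, per the submitters' processing notes, came from hg38 with Trim Galore 0.6.10, STAR 2.7.0a and featureCounts 2.0.6. Which annotation, strand setting and rule for multimapping reads were used: not given in the sources used here. The main fit used edgeR 4.0.16 in R 4.3.3: filterByExpr by group, TMM scaling, the quasi-likelihood test, and Benjamini-Hochberg adjustment over all 23109 tested genes, threshold 0.05. Fold changes of single genes are from that fit, and standard errors are on the log2 scale. Class levels are sums of TMM-scaled CPM over all members, fitted or not. DESeq2 1.42.0 and limma 3.58.1 (voom) were alternatives. Fits were tested on simulated data.

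The members and gene lists were chosen with earlier results of these data known. Genes named with values were those with the 3 largest counts and the highest and lowest fold change in each class, the 2 highest and 2 lowest passing genes in each list, and 14 genes always named, of which 1 is not reported here; others named were chosen after their values were seen, among them those not called, those whose call changed and those shown as examples of library spread. Gene positions, transcripts and shared 100-base windows are from GENCODE 29 (GRCh38), which matched all 69 members, and promoters are from RefSeq. Transcript length, for the length trend, was known for 94.2% of tested genes. The trend was a smooth curve in each library of log2 level, relative to each gene's mean over the libraries, on log2 length. It was removed as an offset, and genes without a known length were left as they were.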

Additional observations from a re-analysis of the deposited data

How the results depend on the processing

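Over all genes, the number called higher was 8964 (8684 to 9204 with 1 library left out) and the number called lower was 9362 (9062 to 9706). Under library size alone they were 5673 and 12885. Library size alone moved the share of higher calls from 48.9% to 30.6%, upper-quartile scaling moved the median of all genes up by 0.17 and it moved down by 0.53 under library size alone. With 1 library left out, 38 to 39 members were called higher. Of the 39 called in the full set, 37 kept their call without MGO 2 (H4C9 was gained), 38 or 39 without each other library, and 33 under library size alone. With at least 1 CPM in 3 libraries, 21 members were tested, all 21 called higher and 0 lower, because that filter tests fewer genes. The 2 members called lower were 0 to 2 with 1 library left out, 1 under upper-quartile scaling and DESeq2, and 0 without both libraries numbered 2, an alternative added after the data were seen, where 37 were called higher.

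Library size alone gave log2 ratios of summed CPM of 1.07 for H1, 0.92 for H2A, 0.60 for H2B, 0.70 for H3 and 0.76 for H4, against 1.60, 1.46, 1.13, 1.23 and 1.29. It gave medians of 0.86, 0.75, 0.83, 1.18 and 1.12 for H1, H2A, H2B, H3 and H4. The H2B ratio was 1.30 under upper-quartile scaling and 1.31 without H2BC12. With 1 library left out the ratios ran from 1.45 to 1.70 for H1, 1.22 to 1.62 for H2A, 0.99 to 1.24 for H2B, 1.02 to 1.37 for H3 and 0.996 to 1.47 for H4. The medians ran from 0.99 to 1.57, 0.99 to 1.51, 1.02 to 1.52, 1.44 to 2.06 and 1.27 to 1.85.

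No member changed sign among its calls. With the trend on transcript length removed the members' median was 1.16, and LSM11 (0.33), POU2F1 (0.44), CREBBP (0.065), CPSF2 (0.71) and NUDT21 (0.094) reversed; the cause was not tested. Calls lost by 1 setting or another were those of H1-3, H2AC13, H2AC18, H2AC21, H2BC6, H3C10, H4C12 and H4C16. Same-numbered libraries did not deviate together over all tested genes (r of -0.01, -0.10 and 0.04). Over the members r was 0.58, 0.74 and 0.11, a hint from the data and not the design. Between libraries of unlike number r over the members ran from -0.71 to 0.20. The highest of these was for MGO 3 with Control 1, above the 0.11 of MGO 3 with Control 3. A replicate block gave 8869 higher and 9299 lower over all genes and left the members at 39 and 2.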
